A study of Canis lupus familiaris with 7 samples.

Results

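Matrix proteases and their inhibitors were examined in 7 primary canine osteosarcomas, bone tumours of pet dogs. The genes were those whose array symbol was MMP, ADAM or ADAMTS followed by a number, or TIMP followed by a digit, and this name alone decided membership. They came to 45 genes with 66 probes out of 43603 probes on the array: 18 MMP, 12 ADAM, 12 ADAMTS and 3 TIMP genes. RNA of each tumour was hybridised to 1 single-colour Agilent canine array, and the question was which expression differences go with deletion of DLG2, a scaffold protein gene. In the DLG2 deleted group were 4 tumours from dogs aged 8, 9, 6 and 7 years (tumours 1 to 4), whose breed labels were Mixed Breed (German Shepherd/Collie/X), Rottweiler X (Canine Mixed Breed), Greyhound and Great Pyrenees. The DLG2 wild type group held 3 tumours from dogs aged 12, 10 and 8 years (tumours 1 to 3), labelled Boxer, Mixed Breed (Labrador Retriever/X) and Bull Mastiff. In the same order, the sex labels were MC, FS, MC and FS in the deleted group and FS, FS and MC in the wild-type group. The labels name no treatment, each tumour came from a different dog seen at a veterinary clinic, and the RNA was that of whole tumour pieces rather than of sorted cells.

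Matrix metalloproteinases (MMPs) are zinc enzymes that cut collagens, proteoglycans and other matrix proteins, and most are made as inactive precursors that are opened outside the cell. ADAM proteins sit in the membrane, where many shed the outer part of other membrane proteins, and ADAMTS proteins are secreted enzymes that cut proteoglycans or process procollagens. TIMPs bind the active site of these enzymes and block it. In bone, MMP9 is a known product of osteoclasts, MMP13 of osteoblasts and hypertrophic chondrocytes, and MMP2 and MMP14 of mesenchymal cells.

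The readouts rest on 60-base probes, whose coordinates the files give on the canFam2 dog genome. The sequences below are those of the genes that the results turn on, 5′ to 3′ as deposited. A probe is shown whole only where its coordinates span well over its 60 bases or where it holds a motif named here, and otherwise by its first 30 bases. Such a span was found for 18 of the 66 probes. It was read as an exon junction, and these are called junction probes, but exon positions were not looked up. Whether a probe lies in an untranslated region was not analysed here. Capitals mark the core of the cysteine switch, the prodomain stretch whose cysteine holds the zinc of an inactive MMP, and cover the codons of proline, arginine and cysteine with the start of the glycine codon. This run of letters was searched on the probe strand, and 1 probe of the 66 held it, against 0.0665% of all 43603 probes.

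MMP2, motif probe A_11_P0000023341, chr2:63373216-63373275, minus strand: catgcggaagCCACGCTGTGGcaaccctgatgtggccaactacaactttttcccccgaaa
MMP2, brightest probe A_11_P052991, chr2:63352060-63352119, minus strand: ttcagctctgtagttaaatgggcgtgctca
MMP9, brightest probe A_11_P0000019937, chr24:36257437-36257496, plus strand: aattctcggaatgaggtgaaccaggtggac
MMP9, junction probe A_11_P053471, chr24:36252038-36252387, plus strand: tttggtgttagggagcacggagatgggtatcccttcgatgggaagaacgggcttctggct
MMP9, junction probe A_11_P053481, chr24:36250789-36251334, plus strand: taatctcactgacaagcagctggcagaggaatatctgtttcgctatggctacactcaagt
MMP13, junction probe A_11_P053086, chr5:31867714-31868765, plus strand: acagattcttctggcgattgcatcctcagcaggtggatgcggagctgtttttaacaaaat
MMP12, A_11_P0000024446, chr5:31941480-31941539, plus strand: cttccaaggacctgacgtatttgaatatga
MMP3, A_11_P050886, chr5:31966556-31966615, plus strand: gacccaaatgcaaagaaagtgacacatgtt
MMP1, A_11_P106336, chr5:31994840-31994899, plus strand: tttgatcttcgaactaagagagttctgagt
ADAMTS18, A_11_P0000032867, chr5:76910493-76910552, plus strand: gcgtctgcaaccacaaattttacggtcaac
ADAM11, A_11_P0000025335, chr9:22028958-22029017, minus strand: ggcccaacatgttgtgcctggaccatcggt
ADAM23, A_11_P057756, chr37:18160620-18160679, plus strand: aagaacccctctcaccacctgtcaataaaa
ADAM22, A_11_P00000106, chr14:17199920-17199976, plus strand: cttggataccattttcctttttgtcattgg

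Values are log2 intensities, corrected for local background by the normexp model, which keeps every value above 0, and quantile-normalized between arrays. Groups were compared with limma, whose linear model borrows the spread of all probes, and a difference is the mean of deleted minus that of wild-type tumours. Probes entered the test if at least 3 of the 7 arrays put them well above background, and a gene was read from its brightest tested probe. By this filter 55 of the 66 probes and 35 of the 45 genes were tested, and 27 of the 35 were well above background in all 7 tumours. Among the 10 genes below it, ADAM7, ADAM18, ADAM21, ADAMTS16, MMP17 and MMP20 were well above background on 0 arrays. MMP7, a matrilysin, and MMP26 passed it in 1 deleted tumour each, and MMP15 in 1 tumour of each group. MMP27 was well above background in 2 deleted tumours and in 0 wild-type tumours. ADAM17 and ADAMTS1 had no probe under those symbols and were not analysed here.

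Between 30280 and 34538 probes per array were well above background. Arrays of wild-type tumours 1 and 2 correlated at r = 0.987 over probes, against 0.9355 to 0.9659 for the other 20 pairs, and at the 35 genes their median absolute log2 difference was 0.19, against 0.28 to 0.60 in the other pairs. At 5 of the 35 genes they lay over 1 log2 unit apart, and the labels give them as separate dogs. The only DLG2 probe read 10.37, 11.44, 10.51 and 10.84 in the deleted group (tumours 1 to 4) and 10.91, 12.03 and 11.75 in the wild-type group (tumours 1 to 3) (log2 intensity). The groups overlapped at this probe (difference -0.77, SE 0.35, adjusted p = 0.710), and whether it lies within the deleted stretch was not tested. Deleted tumours 2 and 3 and wild-type tumour 2 shared 1 of the 5 slides. All images were extracted on the same day, and the extraction times were split here at noon into 2 sessions. Session 1, before noon, held deleted tumours 2, 3 and 4 and wild-type tumour 2.

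DLG2 status separated few of the protease genes, and the tumours differed widely among themselves. A gene was called where limma gave both p below 0.05 and adjusted p below 0.1. This held for 0 of the 35 genes and for 0% of the 11116 genes tested on the array, among whose probes no adjusted p lay under 0.120. Unadjusted p values below 0.05 were found for 3 genes, ADAM11, ADAM23 and ADAMTS18, all lower in deleted tumours, though ADAM23 turned to 0.01 and ADAMTS18 to 0.16 with normexp values scaled to their 75th percentile, a scaling that put the median of all probes at 0.32, above both. This is 8.57% of the 35 against a background of 7.59% of all genes in either direction and 3.95% for lower genes. Groups did not overlap at 1 gene, ADAMTS18, or 2.86% of the 35, against 7.74% of all genes (3.59% lower and 4.15% higher in deleted tumours). The first share lay near the background in either direction and above that for lower genes, on a count of 3, and the second lay below its background. Without deleted tumour 1, without deleted tumour 2 or without wild-type tumour 3, unadjusted p values below 0.05 were found for 1 gene, or 2.86% of the 35, against 8.28%, 8.37% and 8.70% of all genes in the same fits. Of the 35 genes, 19 had the higher mean in deleted tumours and 16 the lower, with a median log2 difference of 0.06 against 0.01 over all genes, of which 52.8% were higher. The median of the 35 turned to -0.02 when the scanner program's own processed signal was scaled to its 75th percentile, and the median of all probes was then -0.06.

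The spread over tumours was wide for the MMPs in particular. The median range from the lowest to the highest tumour was 2.53 on the log2 scale over the 12 tested MMP genes, 0.78 over the 9 ADAM genes, 0.92 over the 11 ADAMTS genes and 1.40 over the 3 TIMP genes, against 0.80 over all genes. No tumour was high or low throughout. Of the 35 genes, deleted tumour 3 was the highest at 10, deleted tumour 4 the lowest at 10 and wild-type tumour 3 the lowest at 8 and the highest at 6. Among the 8 genes with the widest ranges, wild-type tumour 3 was the highest at 3 and deleted tumour 4 the lowest at 3.

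**Figure D1:**
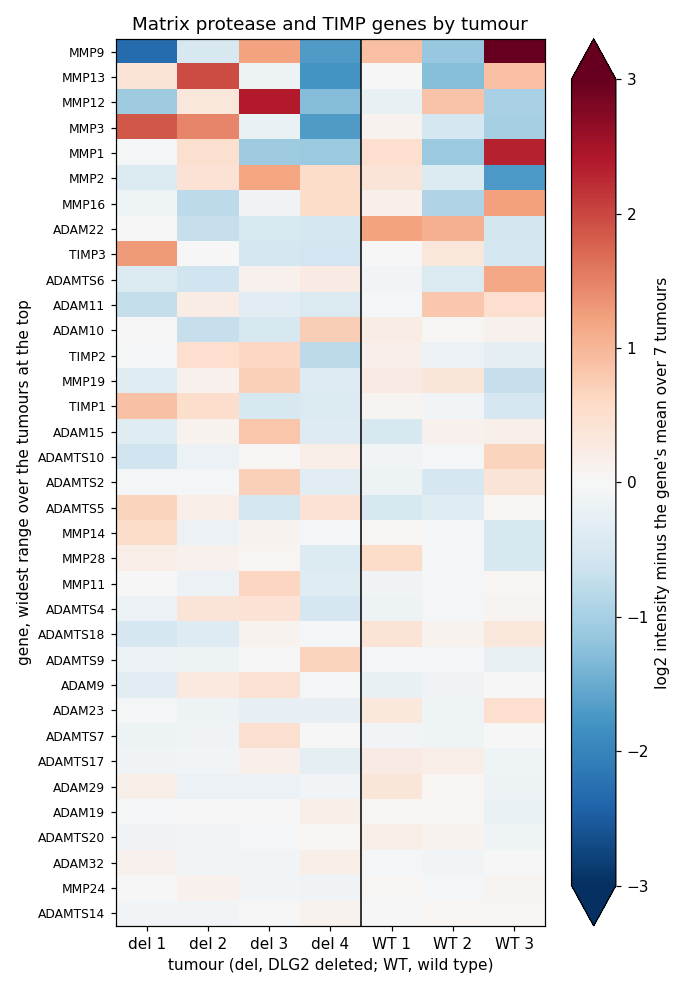
Log2 intensity of the 35 tested genes (vertical axis, widest range at the top) in each of the 7 tumours (horizontal axis), as the deviation from the gene's mean over the 7 tumours, with red above and blue below it. The colour scale ends at 3 either way, and the strong colours lie in the top rows, MMP9 to MMP2, and change from tumour to tumour within both groups.

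Gelatinases, which cut denatured collagen and basement membrane collagen, showed the widest range of any role. MMP9 read 11.04, 12.87, 14.55 and 11.64 in the deleted group (tumours 1 to 4) and 14.25, 12.20 and 16.84 in the wild-type group (tumours 1 to 3). Wild-type tumour 3 was highest and deleted tumour 1 lowest, and the groups overlapped. The range of 5.80 on the log2 scale is 55.8-fold, and 17 of the 11116 genes, MMP9 among them, had a range at least as wide. The difference of the means, deleted minus wild type, was -1.91 (SE 1.24, adjusted p = 0.827 by limma), and the exact permutation test over tumours gave p = 0.286. Without wild-type tumour 3 it was -0.70, and without wild-type tumour 2 it was -3.02. On the shared slide the direction turned, with the 2 deleted tumours higher than wild-type tumour 2 by 1.51. Within session 1 the difference was 0.82, and within session 2, with 1 deleted and 2 wild-type tumours, it was -4.51.

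The array carries 5 MMP9 probes, all of them well above background on every array. Wild-type tumour 3 was the highest at each of the 5. The brightest probe and A_11_P053796 share 49 bases by their coordinates, so they are not independent, and they differed by -1.91 and -1.92 between the groups. The junction probes A_11_P053471 and A_11_P053481 read 10.45 and 9.44 in wild-type tumour 3 and at most 8.28 and 8.07 in the other tumours, and their differences were -1.12 and -0.82. The probe A_11_P0000019576, for which the file gives no coordinates, ranged over 0.40 and differed by -0.08.

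Of the 4 tested osteoclast list genes, 3 were highest in the same tumour as MMP9, and 0 of the 4 passed the test between the groups. The median deviation of the osteoclast list from its mean over tumours was -1.19, -0.17, 0.53 and -1.06 in the deleted group (tumours 1 to 4) and 0.53, -0.51 and 2.28 in the wild-type group (tumours 1 to 3). Wild-type tumour 3 was thus the highest and deleted tumour 1 the lowest, as for MMP9. The osteoblast list, 6 of 10 genes tested, had medians of 0.19, -1.18, -0.60 and 0.38 in deleted tumours and 0.49, -0.04 and 0.72 in wild-type tumours. By this median wild-type tumour 3 was the highest too, but of its genes only RUNX2 and BGLAP peaked there. ALPL and COL1A1 were highest in deleted tumour 4, COL1A2 in deleted tumour 1 and PHEX in wild-type tumour 1. Of the 9 listed osteoclast genes 4 were tested. ACP5, the tartrate-resistant acid phosphatase of osteoclasts, read 14.35 in wild-type tumour 3 and at most 11.58 elsewhere. The proton pump subunit gene ATP6V0D2 read 12.24 there and at most 10.20 elsewhere. CTSK, the collagen-cutting cathepsin of osteoclasts, read 16.36 there and at most 15.35 elsewhere. The calcitonin receptor gene CALCR was highest in deleted tumour 1 (7.23, against 7.16 in wild-type tumour 3) and ranged over only 0.44. TNFRSF11A was below the filter, and OSCAR, DCSTAMP, TM7SF4 and OCSTAMP had no probe under those symbols. The part of either cell type in the MMP9 values was not tested. In such bulk RNA, fewer cells of a type and less RNA per cell cannot be told apart.

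**Figure D2:**
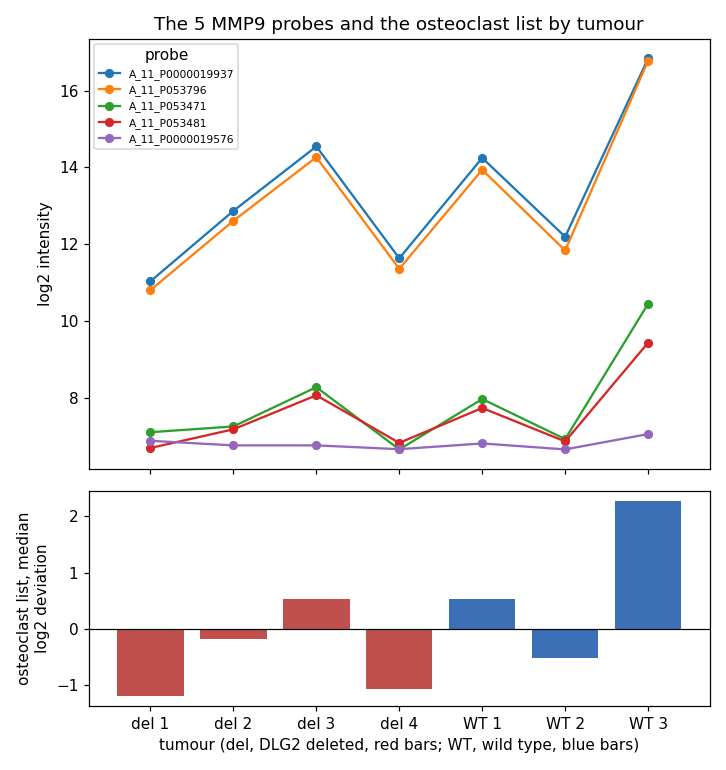
Upper panel, log2 intensity of the 5 MMP9 probes in each tumour. Lower panel, median log2 deviation of the 4 tested osteoclast list genes in the same tumours, whose highest value, 2.28, is that of wild-type tumour 3, where all 5 probes are also highest.

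MMP2, the other gelatinase, is activated at the cell surface by MMP14. It read 10.84, 11.71, 12.44 and 11.81 in the deleted group (tumours 1 to 4) and 11.66, 10.86 and 9.53 in the wild-type group (tumours 1 to 3). Wild-type tumour 3, the highest for MMP9, was the lowest here, and deleted tumour 1 lay below wild-type tumours 1 and 2. The difference was 1.02 (SE 0.56, adjusted p = 0.775; exact permutation p = 0.171), 2.02-fold in linear terms, and did not pass the test. Its motif probe, which reads the cysteine switch core printed above, differed by 0.60 and had the same lowest and highest tumours. Without wild-type tumour 3 the difference of the brightest probe was 0.44. The fibroblast list, 6 of 6 genes tested, had medians of 0.16, 0.40, 0.57 and -0.20 in deleted tumours and 0.28, 0.05 and -0.65 in wild-type tumours. By this median its highest and lowest tumours were those of MMP2, but of its genes only DCN and COL3A1 shared both. LUM was highest in deleted tumour 4, PDGFRA in deleted tumour 1, THY1 in deleted tumour 2 and FAP in wild-type tumour 1. What fibroblasts contribute to the MMP2 values was not tested.

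On chromosome 5, 7 MMP genes lie in a run of 335 kb (chr5:31867714-32203060 by their probes): MMP13, MMP12, MMP3, MMP1, MMP27, MMP20 and MMP7. Of these, 4 were tested, and their ranges of 3.43 to 3.75 were all among the 8 widest of the 35 genes. Each of the 4 peaked in a different tumour. MMP13, a collagenase, read 9.37, 10.92, 8.80 and 7.16 in the deleted group (tumours 1 to 4) and 8.95, 7.70 and 9.86 in the wild-type group (tumours 1 to 3). Deleted tumour 2 was the highest and deleted tumour 4 the lowest, so that both ends of the range lay in the same group. Its difference was 0.23 (SE 0.91, adjusted p = 0.979) and turned to -0.39 without deleted tumour 2. It was 2.16 on the shared slide, 1.27 within session 1 and -0.04 within session 2.

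MMP12, the macrophage elastase, read 6.80, 8.18, 10.24 and 6.55 in deleted tumours and 7.63, 8.70 and 6.88 in wild-type tumours. Deleted tumour 3 stood highest, and deleted tumour 4 was the only tumour where the probe was not well above background. The difference of 0.20 (SE 0.94, adjusted p = 0.981) turned to -0.84 with the processed signal scaled to its 75th percentile and to -0.56 without deleted tumour 3. Macrophage list genes, 6 of 7 tested, had medians of -0.92, 0.17, 1.0 and -0.50 in deleted tumours and -0.31, 0.50 and -0.31 in wild-type tumours. Deleted tumour 3 was the highest by this list too, and wild-type tumour 2 the next in both. Its genes did not all share this order, since the macrophage markers CD68 (12.41) and CSF1R (8.82) were highest in wild-type tumour 3. The share of macrophages in the MMP12 values was not tested.

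Stromelysin MMP3, which cuts proteoglycans and activates other MMPs, read 10.46, 10.08, 8.41 and 6.90 in the deleted group (tumours 1 to 4) and 8.70, 8.07 and 7.62 in the wild-type group (tumours 1 to 3). Deleted tumours 1 and 2 were above all wild-type tumours, and deleted tumour 4 was below them. The difference was 0.83 (SE 0.86, adjusted p = 0.904). It was 1.52 without deleted tumour 4 and 0.33 without deleted tumour 1.

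MMP1, the interstitial collagenase, read 8.26, 8.77, 7.22 and 7.18 in deleted tumours and 8.80, 7.17 and 10.60 in wild-type tumours. Wild-type tumours held both the highest and the lowest value. The difference of -1.0 (SE 0.82, adjusted p = 0.875) became -0.13 without wild-type tumour 3 and turned to 0.82 on the shared slide. Both collagenases tested, MMP1 and MMP13, thus differed in opposite directions, with 0 of 2 past the test.

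**Figure D3:**
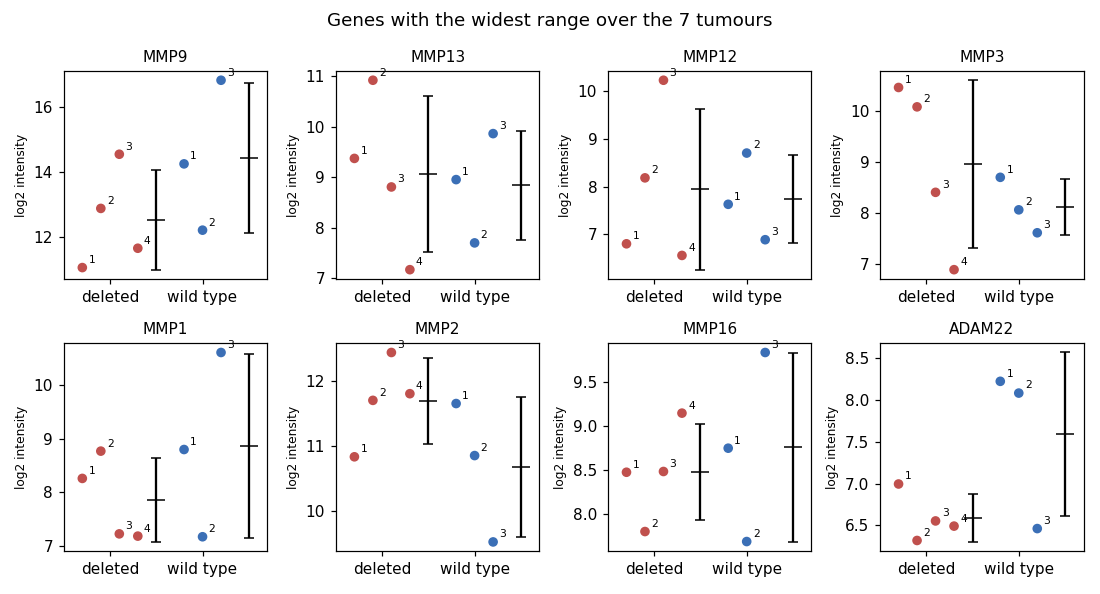
Log2 intensity of the 8 genes with the widest range, 1 point per tumour with its number (red, deleted; blue, wild type); bars give the mean and SD of each group (n = 4 and n = 3), and each panel has its own vertical scale. The groups overlap in all 8 panels, and the highest tumour is wild-type 3 for MMP9, MMP1 and MMP16.

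Membrane-type MMPs act at the cell surface, and 3 of the 5 on the array were tested. MMP14, the activator of MMP2, read 8.26, 7.54, 7.81 and 7.66 in deleted tumours and 7.77, 7.67 and 7.21 in wild-type tumours. Deleted tumour 1 was the highest and wild-type tumour 3 the lowest, over a range of 1.05 (difference 0.27, SE 0.22, adjusted p = 0.875). Within session 1 the difference was -0.0032, and within session 2 it was 0.77. MMP16, a second membrane-type enzyme, read 8.47, 7.80, 8.48 and 9.14 in deleted tumours and 8.75, 7.69 and 9.83 in wild-type tumours, with both ends of the range in the wild-type group. Its difference of -0.28 (SE 0.53, adjusted p = 0.949) turned to 0.26 without wild-type tumour 3 and to 0.45 on the shared slide. MMP24, the third tested, and MMP11, MMP19 and MMP28 are counted with the remaining genes further on.

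The ADAM genes gave 2 of the 3 genes at an unadjusted p below 0.05, both lower in deleted tumours. This is 22.2% of the 9 tested, on a count of 2. Over all genes the share was 7.59% in either direction and 3.95% for lower genes. Of the 9 tested, 5 were lower and 4 higher in deleted tumours, with a median of -0.15 that turned to 0.01 when the normexp values were scaled to their 75th percentile, a scaling that put the median of all probes at 0.32. ADAM11, ADAM22 and ADAM23 code for members without a working zinc site, known as receptors for LGI proteins in the nervous system. All 3 had the lower mean in deleted tumours. The other tested ADAM genes were not sorted by zinc site, so members without one were not examined as a class. ADAM11 read 9.26, 10.18, 9.66 and 9.54 in deleted tumours and 9.91, 10.78 and 10.46 in wild-type tumours. The groups overlapped only through deleted tumour 2, which lay above wild-type tumour 1. The difference was -0.72 (SE 0.28, unadjusted p = 0.0356, adjusted p = 0.659 by limma; exact permutation p = 0.114), with values of -0.98 and -0.92 within the sessions and -0.85 on the shared slide.

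ADAM23 read 7.20, 7.07, 6.99 and 6.98 in deleted tumours and 7.54, 7.11 and 7.73 in wild-type tumours. Wild-type tumours 1 and 3 were the highest, while wild-type tumour 2 lay below deleted tumour 1. The difference was -0.40 (SE 0.16, unadjusted p = 0.0427, adjusted p = 0.678 by limma; exact permutation p = 0.114). It was -0.08 on the shared slide, -0.09 within session 1 and -0.44 within session 2, and 0.01 with normexp values scaled to their 75th percentile.

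ADAM22 read 7.00, 6.32, 6.55 and 6.49 in deleted tumours and 8.23, 8.09 and 6.46 in wild-type tumours. Wild-type tumours 1 and 2, the pair with the closest arrays, stood above the other tumours, and wild-type tumour 3 lay among the deleted ones. The probe was well above background in 1 of 4 deleted and 2 of 3 wild-type tumours. The difference was -1.0 (SE 0.44, unadjusted p = 0.0570, adjusted p = 0.698 by limma; exact permutation p = 0.229) and was -0.34 with the dogs' age as a term. It was -3.36 with the processed signal scaled to its 75th percentile, -1.65 on the shared slide, -1.63 within session 1 and -0.35 within session 2. A second probe, which shares 13 bases with the first, differed by -0.60.

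ADAM10, the sheddase of Notch and other membrane proteins, read 10.64, 9.93, 10.14 and 11.34 in deleted tumours and 10.85, 10.66 and 10.76 in wild-type tumours. Deleted tumours held both the highest and the lowest value, and wild-type tumours spread over only 0.19. The difference was -0.24 (SE 0.33, adjusted p = 0.927). Of the 4 ADAM10 probes, 1 shares 54 bases with the brightest, so it is not independent of it, and differed by -0.23. The other 2 had small differences of the opposite sign, 0.06 and 0.03.

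Of the secreted ADAMTS enzymes, 1 was among the genes at an unadjusted p below 0.05, or 9.09% of the 11 tested, against 7.59% of all genes. Of the 11 tested, 5 were higher and 6 lower, with a median of -0.04 that became 0.38 with normexp values scaled to their 75th percentile and 0.10 without wild-type tumour 3. ADAMTS18, an enzyme without a well-defined matrix role, read 6.43, 6.54, 7.04 and 6.89 in deleted tumours and 7.36, 7.04 and 7.27 in wild-type tumours. It was the only gene of the 35 whose groups did not overlap, and the gap from deleted tumour 3 (7.0377) up to wild-type tumour 2 (7.0387) was 0.001. The difference was -0.50 (SE 0.18, unadjusted p = 0.0262, adjusted p = 0.634 by limma). The exact permutation p was 0.0571, the smallest that this test, which doubles the smaller one-sided share, can give with 4 against 3 tumours. The probe was well above background in 2 of 4 deleted and 3 of 3 wild-type tumours, and the difference turned to 0.16 with normexp values scaled to their 75th percentile. It was -2.27 and -2.12 with the processed signal (75th percentile, quantile), -0.25 on the shared slide, -0.22 within session 1 and -0.88 within session 2.

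In the aggrecanase group, which cuts the cartilage proteoglycan aggrecan, ADAMTS4, ADAMTS5 and ADAMTS9 all had the higher mean in deleted tumours (0.07 to 0.45), though ADAMTS4 turned to -0.01 with the processed signal scaled to its 75th percentile. ADAMTS5 read 8.87, 8.41, 7.69 and 8.63 in deleted tumours and 7.74, 7.85 and 8.27 in wild-type tumours. Deleted tumours 1, 2 and 4 lay above all wild-type tumours and deleted tumour 3 below them (difference 0.45, SE 0.29, adjusted p = 0.828). ADAMTS4 read 8.86, 9.44, 9.47 and 8.53 in deleted tumours and 8.88, 9.02 and 9.12 in wild-type tumours, and the wild-type tumours lay within the range of the deleted ones (difference 0.07, SE 0.25, adjusted p = 0.977). The cartilage list, 7 of 8 genes tested, was highest in deleted tumours 2 and 3, at 2.44 and 0.86, and lay between -0.84 and -0.02 in the other 5. These were also the tumours with the highest ADAMTS4, whereas ADAMTS5 was lowest in deleted tumour 3. The part of cartilage in these values was not tested. The 5 tested ADAMTS genes outside the aggrecanase, procollagen and cartilage oligomeric matrix protein groups, ADAMTS18 among them, all had the lower mean (-0.50 to -0.10), while 4 of the 5 had the higher mean with normexp values scaled to their 75th percentile.

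**Figure D4:**
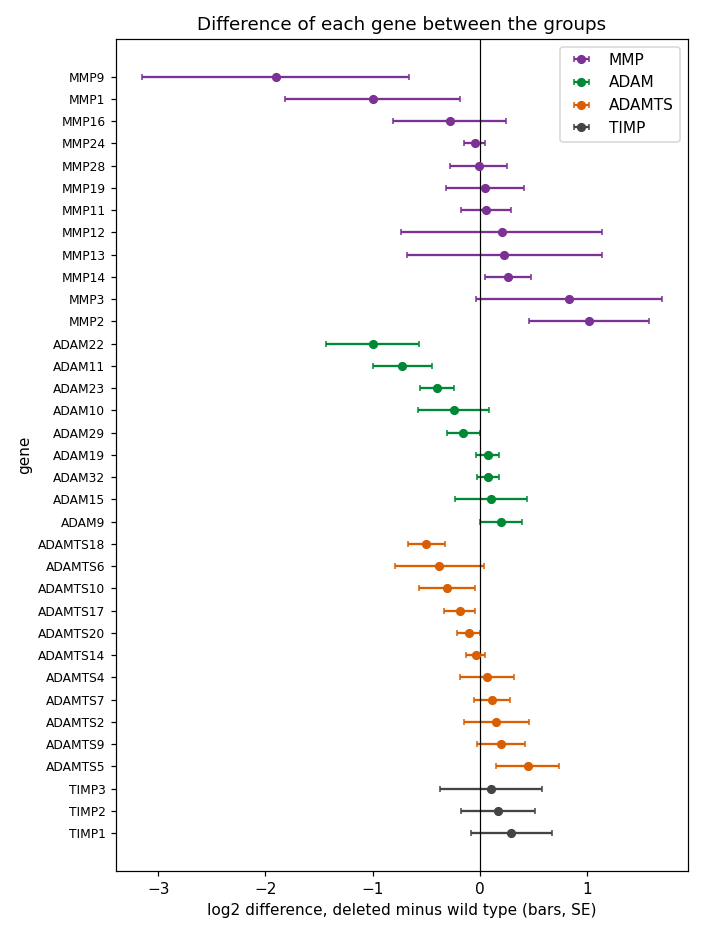
Log2 difference of each of the 35 genes, deleted minus wild type (horizontal axis), with the SE of limma as bars and the genes grouped by family. MMP genes span -1.91 to 1.02 with the widest bars, and TIMP genes lie between 0.10 and 0.29, of which TIMP2 and TIMP3 turn below 0 with normexp values scaled to their 75th percentile.

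All 3 inhibitor genes were well above background in every tumour. TIMP1 read 16.36, 16.00, 14.99 and 15.04 in deleted tumours and 15.54, 15.39 and 14.97 in wild-type tumours. Deleted tumours 1 and 2 were the highest, and the other 2 deleted tumours lay close to wild-type tumour 3 (difference 0.29, SE 0.38, adjusted p = 0.921). The second TIMP1 probe differed by 0.43 with the same highest and lowest tumours.

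TIMP2, which also takes part in MMP2 activation by MMP14, read 11.13, 11.65, 11.76 and 10.36 in deleted tumours and 11.31, 10.97 and 10.89 in wild-type tumours. Deleted tumours held both ends of the range (difference 0.17, SE 0.35, adjusted p = 0.957), and the value turned to -0.13 with normexp values scaled to their 75th percentile. By coordinates its 2 probes lie on opposite strands, so they do not read the same strand of RNA. The second read only 6.72 to 7.15. Both differed by 0.17, and which RNA the second one reads was not tested.

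TIMP3, the inhibitor that binds to the matrix, read 12.89, 11.61, 11.09 and 11.05 in deleted tumours and 11.61, 11.97 and 11.09 in wild-type tumours. Deleted tumour 1 was 0.92 above the next, and the other values lay within 0.91 (difference 0.10, SE 0.48, adjusted p = 0.981). Without deleted tumour 1 the difference was -0.30. On the shared slide it was -0.61, within session 1 -0.71 and within session 2, where deleted tumour 1 was the only deleted tumour, 1.53.

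**Figure D5:**
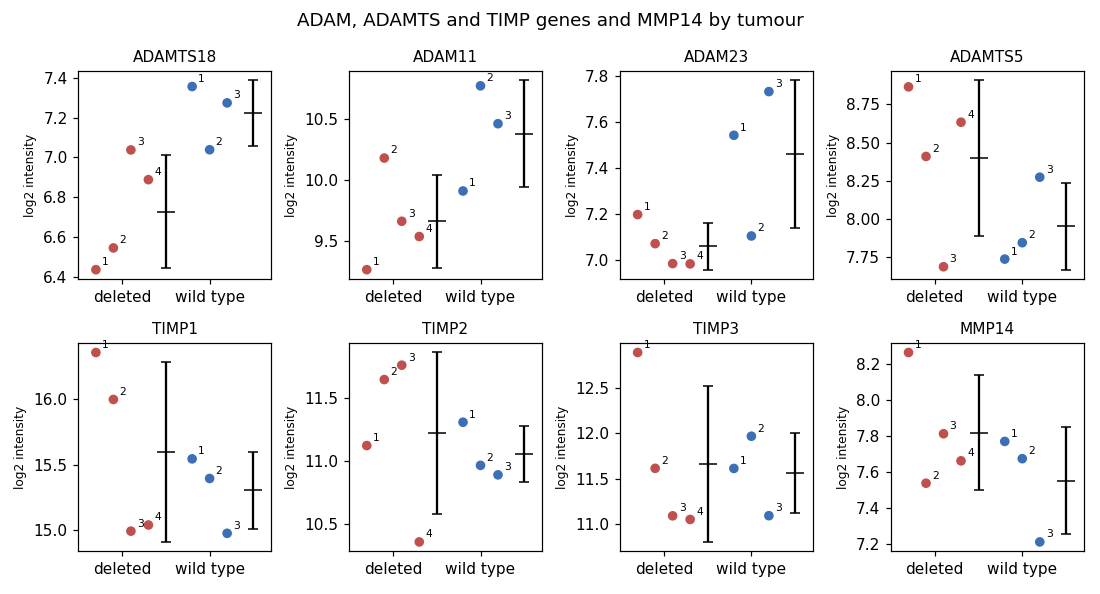
Log2 intensity of ADAM, ADAMTS and TIMP genes and of MMP14, 1 point per tumour with its number (red, deleted; blue, wild type), with the mean and SD of each group as bars (n = 4 and n = 3) and a vertical scale for each panel. ADAMTS18 is the panel without overlap, by 0.001, and TIMP1 and TIMP3 are highest in deleted tumour 1.

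The remaining 17 tested genes were ADAM9, ADAM15, ADAM19, ADAM29, ADAM32, ADAMTS2, ADAMTS6, ADAMTS7, ADAMTS9, ADAMTS10, ADAMTS14, ADAMTS17, ADAMTS20, MMP11, MMP19, MMP24 and MMP28. Their differences lay between -0.38 and 0.20, 9 higher and 8 lower, with adjusted p between 0.864 and 0.997. Their ranges over the tumours ran from 0.20 to 1.78, with a median of 0.78, close to the 0.80 of all genes. Among them ADAMTS2 and ADAMTS14, which remove the amino end of procollagens, had the higher and the lower mean respectively. Of the 13 genes with several probes, 12 had more than 1 tested, and probes of opposite sign were found at 2.

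Other genes of matrix turnover, listed by role, were read from the same test. Of 52 listed genes 42 were tested, 25 higher and 17 lower in deleted tumours, and 0 were called. At an unadjusted p below 0.05 there were 4 genes, all higher, or 9.52% of the 42. Over all genes the share was 7.59% in either direction and 3.64% for higher genes. Groups did not overlap at 2 of the 42, SERPINE2 and ADAMTSL1, against 7.74% of all genes. In the plasminogen system, whose protease plasmin activates several MMPs, 6 of 7 genes were higher with a median of 0.67, and 7 of 7 with normexp values scaled to their 75th percentile. The genes named next were chosen after their values were seen. SERPINE2, an inhibitor of urokinase and thrombin, read 12.88, 12.99, 11.99 and 11.87 in deleted tumours and 11.56, 11.84 and 10.84 in wild-type tumours. All 4 deleted tumours lay above the 3 wild-type tumours, by 0.02 at the closest (difference 1.02, SE 0.37, unadjusted p = 0.0298, adjusted p = 0.643 by limma). PLAU, the urokinase that makes plasmin, differed by 0.67 (SE 0.23, unadjusted p = 0.0233, adjusted p = 0.621 by limma), and deleted tumour 4 (6.98) lay below wild-type tumour 2 (7.05).

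Activators, inducers and other inhibitors of MMPs, 11 of 11 tested, all had the higher mean in deleted tumours, with a median of 0.17, against 9 of 11 with either scaling to the 75th percentile or with the processed signal after quantile normalization. A2M, the plasma inhibitor that traps proteases, differed by 0.96 (SE 0.36, unadjusted p = 0.0319, adjusted p = 0.650 by limma), and deleted tumour 2 lay below wild-type tumour 3. The cathepsins and cystatins had 2 of 7 higher and a median of -0.25, and other matrix proteases such as FAP had 1 of 6 higher and a median of -0.20 (3 of 6 with normexp values scaled to their 75th percentile). Among the ADAMTS-like genes, which lack the protease domain, 1 of 4 was higher, and 4 of 4 with that scaling. The higher one, ADAMTSL5, differed by 0.35 (SE 0.13, unadjusted p = 0.0303, adjusted p = 0.643 by limma). ADAMTSL1 was lower in all 4 deleted tumours than in the 3 wild-type tumours (difference -0.21, SE 0.091, unadjusted p = 0.0563, adjusted p = 0.698 by limma), and turned to 0.36 with that scaling. Of the substrates, aggrecan, collagen and related genes, 4 of 7 were higher with a median of 0.59.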

How the data were processed

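The authors deposited 1 scanner file per tumour, holding spot and local background intensity on a linear scale as written by Agilent Feature Extraction 10.7.3.1. Their methods name multi-array average normalization, a batch correction whose batch is not stated, and a t-test. Mean intensity was corrected with median local background by normexp (offset 50), quantile-normalized and put on the log2 scale with limma 3.58.1 in R 4.3.3. Control spots and 144 outlier-marked values were dropped and spots of a probe averaged, so 32309 probes remained at well above background on at least 3 arrays. Saturated spots numbered 0. A RefSeq table (UU_Cfam_GSD_1.0) held all 45 symbols. It named 1845 further probes of the array, of which 0 were of matrix protease or TIMP genes.

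Groups were compared with limma (lmFit, eBayes, two-sided), adjusted by Benjamini-Hochberg over 32309 probes, and single genes by an exact two-sided permutation over the 35 splits of the tumours. The permutation p doubles the smaller one-sided share of these splits. The number of arrays limits the precision. The members, lists and tests were chosen with earlier results of these data known. Values in every tumour were given for genes whose groups did not overlap or with an unadjusted p below 0.05, for a list of well-known members, and for the 8 widest ranges. Lists of markers of other cell types were used beside them. The computations were tested on simulated data. Protein features were not analysed here.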

Additional observations from a re-analysis of the deposited data

Results flagged for a closer look

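Of the 44 groups of 4 deleted tumours that were checked for a tumour far from the other 3, chance would single out about 2.2, and 2 were singled out. Neither was a matrix protease or TIMP gene. For the adipocyte list the gap of deleted tumour 4 (median deviation 3.12, against -0.61 to -0.28 in the other deleted tumours) took up 0.913 of the range, above the critical value of Dixon's test. For the skeletal muscle list deleted tumour 3 (0.46, against -0.15 to -0.06) took up 0.855. Deleted tumour 4 was the lowest of all tumours at 10 of the 35 genes and deleted tumour 3 the highest at 10, and the part of these tissues in those values was not tested.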

How the results depend on the processing

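Across the alternatives tried, 0 of the tested matrix protease and TIMP genes were called. Probes of the array were called in some alternatives, against 0 probes in the comparison reported. They numbered 23 with normexp and 10 with the processed signal, both at 75th percentile scaling. With the processed signal after quantile normalization there were 4, and without background correction 1. Array weights gave 8, limma's trend and robust options 4, and leaving out wild-type tumour 3 gave 46. Of 549 values of 23 named genes, 520 kept their direction and 29 turned, and 12 genes kept it throughout. Alternatives that changed only the test, its threshold or the probe filter left these differences as they were. Their values could not turn and are counted among the 520. The processed signal turned MMP12 to -0.84 and ADAMTS4 to -0.0083 at 75th percentile scaling, and MMP12 to -0.74 after quantile normalization. Normexp with 75th percentile scaling, where the median of all probes was 0.32, turned ADAM23 (0.014), ADAMTS18 (0.16), TIMP2 (-0.13), TIMP3 (-0.22) and ADAMTSL1 (0.36). Array weights turned TIMP3 (-0.093). The slide as a block turned MMP9 (1.51), MMP1 (0.82), MMP16 (0.45) and TIMP3 (-0.61). This fit compares only deleted tumours 2 and 3 with wild-type tumour 2, so its values repeat those given for the shared slide. The session as a term turned MMP12 (-0.42), MMP16 (0.033) and ADAMTS4 (-8.3e-05). Age as a term turned MMP12 (-0.078) and ADAMTS4 (-0.0030), and counting wild-type tumours 1 and 2 as 1 turned MMP13 (-0.027).

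Genes at an unadjusted p below 0.05, 3 in the comparison reported, numbered 1 with normexp at 75th percentile scaling (3.56% of all genes) and 1 with the methods' t-test (6.50% of all genes; 1 also with its adjusted threshold at 0.05). Genes without overlap, 1 in that comparison, numbered 5 with that scaling (14.3% of the 35, against 15.1% of all genes), 0 among the 27 genes above background on all arrays (7.71% of all genes) and 3 with wild-type tumours 1 and 2 counted as 1 (8.57%, against 11.9% of all genes). The ADAM median was -0.29 and -0.32 with the processed signal (75th percentile, quantile), 0.014 with normexp at the 75th percentile, -0.27 without background correction, -0.084 with the strict filter, -0.046 without a filter, -0.30 with array weights, -0.077 with slide, -0.073 with session, -0.34 with age, -0.094 with the close wild-type pair as 1 and -0.095 as the mean of a gene's probes. The ADAMTS median was -0.49 and -0.39 with the processed signal, 0.38 with normexp at the 75th percentile and 0.067 with the strict filter. The MMP median was 0.48 both with normexp at the 75th percentile and with slide, and that of all members 0.18 with the former. The cause was not tested.

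Leaving out 1 tumour at a time gave 1 to 4 genes at an unadjusted p below 0.05, against 4.24% to 9.78% of all genes, and 2 to 4 without overlap, or 5.71% to 11.4% of the 35 against 11.3% to 19.5% of all genes. Medians then ran from -0.24 to -0.050 for ADAM, from -0.081 to 0.098 for ADAMTS and from -0.066 to 0.038 for all members. Differences ran from -0.30 to 0.31 for TIMP3, -0.064 to 0.25 for ADAMTS4, -0.39 to 0.86 for MMP13, -0.56 to 0.69 for MMP12, -0.012 to 0.46 for TIMP2 and -0.81 to 0.26 for MMP16.

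No paired analysis was possible because the tumour numbers follow the order of the samples and pair nothing. Dim probes, such as those of ADAM22 and ADAMTS18, lie near background, where intensity limits what can be told apart.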
